A study of Mus musculus with 8 samples.

Results

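The Period, Cryptochrome and PAR bZIP genes of the circadian clock, with Ciart and Bhlhe41, were followed gene by gene in the mouse pancreas. The set holds 10 genes, Per1, Per2, Per3, Cry1, Cry2, Ciart, Dbp, Tef, Hlf and Bhlhe41, of the 15047 genes in the expression table, and all 10 were measured. They were chosen by name, with their differences between LFD and obese mice already known, so those differences are given as a description and not as a test. Per1, Per2, Per3, Cry2, Ciart, Dbp and Tef were lower in all HFD mice than in any LFD mouse, as were 12.3% of all genes. Dbp had the largest difference of the set, 4.61-fold between LFD and HFD.

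RNA-Seq was made from whole pancreas of 8 male mice. LFD mice (n = 3) and HFD mice (n = 3) were wild-type C57BL/6 put on a low-fat diet or on a high-fat diet with 60% of calories from fat at 4 weeks of age, for 10 weeks, and each mouse is a separate animal. The ob/ob mice (n = 2) were C57BL/6J animals that lack leptin, the satiety hormone of fat cells, and had standard chow from the same age. Genotype and chow therefore cannot be told apart when the ob/ob mice are set against LFD or HFD. Per the study's description, but not the sample labels, all 3 groups carried the mT transplant, tumor organoids grown from a Pdx1-Cre mouse model of pancreatic cancer and placed in the pancreas, so the tissue can hold transplanted tumor cells beside the host's own.

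The circadian clock is a feedback loop of transcription present in most cells. CLOCK and BMAL1, the product of Arntl, bind E-box sequences and switch on the Per and Cry genes, whose proteins return to the nucleus and stop CLOCK and BMAL1. The same activators drive the PAR bZIP factors DBP, TEF and HLF, which carry the rhythm to output genes through D-box sequences, and in the pancreas both acinar and islet cells have clocks of their own. Transcripts of these genes vary over the day. The hour of collection is not given in the sources used here, so hour and group cannot be told apart.

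Promoter sequences from RefSeq (GRCm38.p6, from 250 bases before to 50 bases after a gene's start) were found for 9 of the 10 genes, in 11 windows, with no entry for Per2. The E-box CACGTG, which is its own reverse complement, was in 6 of the 11 windows and in 7.15% of all 32851 promoter windows. The E-box variant CACGTT, read on both strands, was in the windows of Cry1 and Cry2 and in 4.68% of all windows. The D-box TTANGTAA, on either strand, was found in the Per3 window and in 2.32% of all windows. The cyclic AMP element TGACGTCA was in the Hlf window and in 1.79% of all windows. The ROR element TAGGTCA was in none of the 11 windows, in 2.61% of all windows and, among genes of the activator list, in 1 window of Arntl and in that of Nfil3. These are matches of letters in a window and not measured binding, and a window without a match says nothing of the factor. No match in the 9 genes overlapped another. The stretches below lie upstream of a RefSeq start, outside annotated exons, and are shown because they hold the CACGTG or TTATGTAA matches of 5 repressor genes, written in capitals.

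Ciart, chr3:95882252-95882478, minus strand: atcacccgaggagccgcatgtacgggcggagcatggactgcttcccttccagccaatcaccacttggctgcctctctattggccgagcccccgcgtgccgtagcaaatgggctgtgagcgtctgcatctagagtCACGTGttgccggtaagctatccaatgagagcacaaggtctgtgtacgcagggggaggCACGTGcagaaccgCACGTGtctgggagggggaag
Cry1, chr10:85185065-85185304, minus strand: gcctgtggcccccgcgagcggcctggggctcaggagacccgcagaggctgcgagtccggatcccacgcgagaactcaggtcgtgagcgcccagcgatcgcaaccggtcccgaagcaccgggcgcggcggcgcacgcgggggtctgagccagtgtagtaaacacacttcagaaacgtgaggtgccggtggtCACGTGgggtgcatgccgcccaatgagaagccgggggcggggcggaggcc
Per1, chr11:69098699-69098947, plus strand: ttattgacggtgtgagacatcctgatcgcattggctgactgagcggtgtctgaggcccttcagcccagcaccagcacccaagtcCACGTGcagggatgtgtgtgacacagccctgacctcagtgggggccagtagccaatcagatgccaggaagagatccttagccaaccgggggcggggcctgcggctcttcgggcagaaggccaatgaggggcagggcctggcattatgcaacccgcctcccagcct
Per3, chr4:151044666-151044915, minus strand: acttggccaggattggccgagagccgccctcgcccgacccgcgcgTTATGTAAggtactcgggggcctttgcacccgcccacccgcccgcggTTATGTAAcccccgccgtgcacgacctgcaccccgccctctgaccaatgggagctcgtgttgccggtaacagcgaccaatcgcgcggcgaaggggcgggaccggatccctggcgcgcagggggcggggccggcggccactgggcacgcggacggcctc
Bhlhe41, chr6:145865559-145865670, minus strand: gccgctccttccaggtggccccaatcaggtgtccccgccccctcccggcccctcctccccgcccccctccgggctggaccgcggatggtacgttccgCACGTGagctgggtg

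Ciart carried 3 copies of the E-box, whose first bases lie 116, 58 and 44 bases before the start. Cry1, Per1 and Bhlhe41 carried 1 copy in the stretch shown, at 60, 166 and 153 bases, and the RefSeq start used for Per1 lies inside the gene as Gencode draws it. The Per3 stretch had no CACGTG but held 2 D-boxes, at 205 and 158 bases. Each of the 2 windows of Tef had an E-box, at 127 and 138 bases, and the CACGTT variant lay 79 bases before the start of Cry1 and 166 bases before that of Cry2. None of the motifs searched was in the Dbp window.

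The values are rlog values of DESeq2, which are on a log2 scale, corrected for library size and drawn toward the mean of a gene when its counts are low. A difference of 1 is therefore about a doubling. The depth of the libraries is unknown. The mice differed widely in the genes of acinar cells, which make the digestive enzymes. The mean rlog value of 29 acinar genes was 17.04, 17.22 and 17.49 in LFD, 17.36, 15.29 and 13.36 in HFD, and 16.64 and 13.67 in ob/ob mice. HFD replicate 1 was therefore at the level of the LFD mice, while HFD replicates 2 and 3 and ob/ob replicate 2 were far below. In whole tissue, fewer cells of a type and less RNA per cell cannot be told apart. For genes of the set, results are given with and without HFD replicate 1 where this mouse decides them. For single genes outside the set, differences with a mouse left out are not given, and some of them rest on single mice. Differences were also fitted with the acinar mean as a covariate. The LFD mice spanned only 17.04 to 17.49, so the slope of that fit rests largely on the obese mice. Acinar level and group therefore cannot be fully told apart in it.

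**Figure D1:**
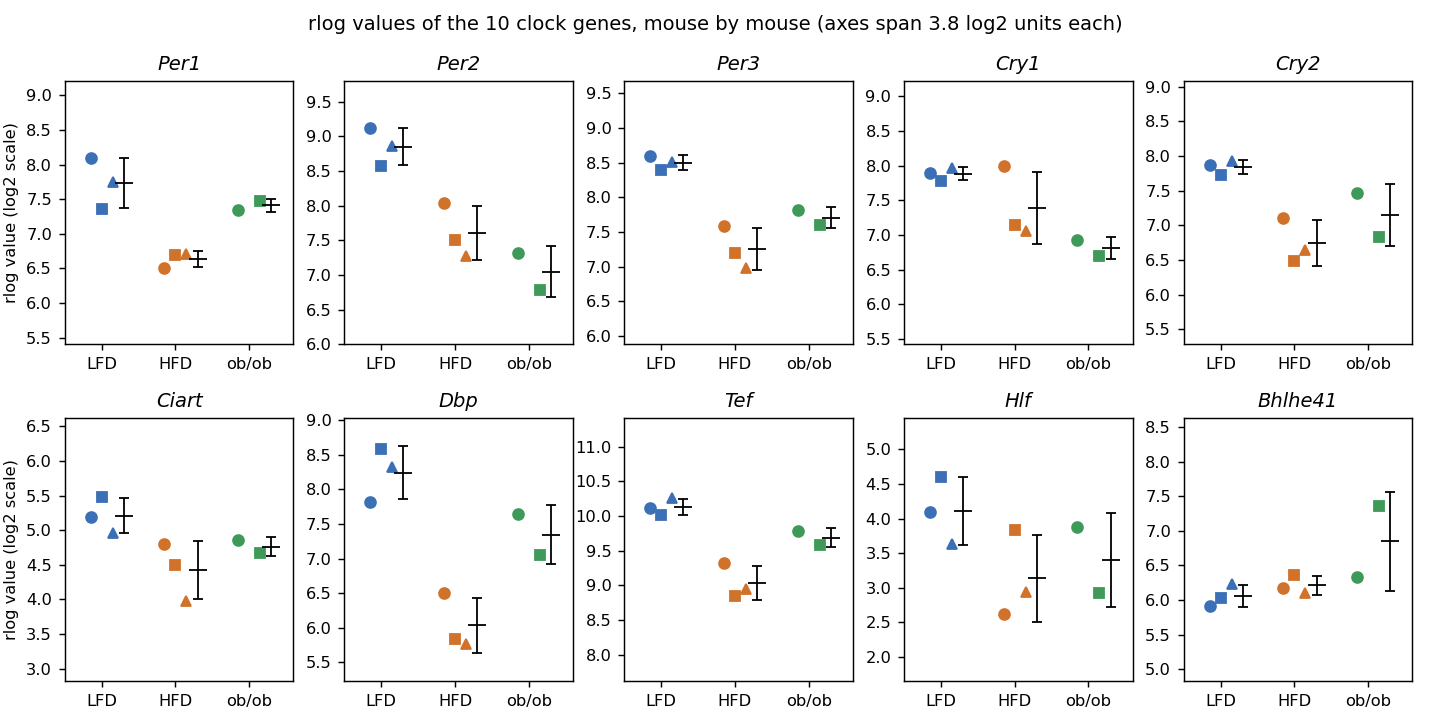
rlog value (log2 scale) of each of the 10 genes in each of the 8 mice, 1 panel per gene on axes of equal span, points for mice (circle, square and triangle for replicates 1, 2 and 3) and black bars for the mean ± SD of LFD (n = 3), HFD (n = 3) and ob/ob (n = 2). LFD mice sit above all HFD mice in 7 panels, while Cry1, Hlf and Bhlhe41 overlap.

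Period genes encode the core repressors of the loop. Per1, on chr11:69095217-69109960 (GRCm38), was 8.10, 7.36 and 7.75 in LFD, 6.51, 6.70 and 6.71 in HFD, and 7.34 and 7.48 in ob/ob mice. The HFD mice lay close together and well below, and the ob/ob mice lay beside the lower LFD mice. Group means were 7.74 ± 0.37 for LFD and 6.64 ± 0.11 for HFD (SD, n = 3 each), against 7.41 ± 0.09 (SD, n = 2) for ob/ob. The difference from LFD was −1.10 (SE 0.23) in HFD, 2.14-fold, and −0.33 (SE 0.25) in ob/ob mice. The latter was −0.15 without LFD replicate 1 and −0.51 without LFD replicate 2.

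Per2, on chr1:91415982-91459324, had another order of groups. Its values were 9.12, 8.58 and 8.86 in LFD, 8.04, 7.50 and 7.28 in HFD, and 7.31 and 6.78 in ob/ob mice. All 5 obese mice were below every LFD mouse, and the lowest value was that of ob/ob replicate 2. LFD mice averaged 8.85 ± 0.27 and HFD mice 7.60 ± 0.39 (SD, n = 3 each), and the ob/ob mice 7.05 ± 0.38 (SD, n = 2). Against LFD this was −1.25 (SE 0.26) in HFD, 2.38-fold, and −1.80 (SE 0.29) in ob/ob mice, 3.49-fold. In ob/ob mice Per2 had the largest difference of the set, 162nd from the lowest of 15047 genes.

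Per3, on chr4:151003652-151044665, was the most even of the Period genes within LFD. It was 8.60, 8.39 and 8.52 in LFD, 7.58, 7.20 and 6.99 in HFD, and 7.81 and 7.60 in ob/ob mice. The 3 groups did not overlap, LFD highest at 8.50 ± 0.10 (SD, n = 3), ob/ob next at 7.71 ± 0.15 (SD, n = 2) and HFD lowest at 7.25 ± 0.30 (SD, n = 3). HFD replicate 1 at 7.58 and ob/ob replicate 2 at 7.60 lay close together. The differences from LFD were −1.25 (SE 0.20) in HFD and −0.79 (SE 0.22) in ob/ob mice.

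Cryptochromes join the PER proteins in the repressor complex, and the order of the HFD and ob/ob means differed between Cry1 and Cry2. Cry1, on chr10:85131700-85185064, was 7.90, 7.78 and 7.97 in LFD, 7.99, 7.14 and 7.05 in HFD, and 6.92 and 6.70 in ob/ob mice. HFD replicate 1 was as high as the LFD mice, so these groups overlapped, whereas both ob/ob mice were below all others. Means were 7.88 ± 0.09 for LFD and 7.39 ± 0.52 for HFD (SD, n = 3 each), against 6.81 ± 0.16 (SD, n = 2) for ob/ob. The difference from LFD was −0.49 (SE 0.27) in HFD, and −1.07 (SE 0.30) in ob/ob mice. The former was −0.79 without HFD replicate 1 and −0.32 without HFD replicate 3.

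Cry2, on chr2:92403646-92434043, was 7.87, 7.72 and 7.93 in LFD, 7.11, 6.48 and 6.64 in HFD, and 7.47 and 6.83 in ob/ob mice. All obese mice were below the LFD mice, and the ob/ob mice spread across the range of HFD and above it. LFD averaged 7.84 ± 0.11 and HFD 6.74 ± 0.33 (SD, n = 3 each), and ob/ob 7.15 ± 0.45 (SD, n = 2). The difference from LFD was −1.10 (SE 0.25) in HFD and −0.69 (SE 0.28) in ob/ob mice, and without ob/ob replicate 2 the latter was −0.38.

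Ciart and Bhlhe41 encode further repressors of CLOCK and BMAL1, the second also known as DEC2, which binds E-boxes itself. Ciart, on chr3:95878503-95882251, was 5.19, 5.47 and 4.96 in LFD, 4.80, 4.49 and 3.97 in HFD, and 4.86 and 4.66 in ob/ob mice. Neither obese group overlapped with LFD, though the lowest LFD mouse and ob/ob replicate 1 lay close together. Means were 5.21 ± 0.26 for LFD and 4.42 ± 0.42 for HFD (SD, n = 3 each), against 4.76 ± 0.13 (SD, n = 2) for ob/ob. Relative to LFD this was −0.79 (SE 0.30) in HFD and −0.45 (SE 0.33) in ob/ob mice.

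Bhlhe41, on chr6:145858243-145865558, was the exception of the set. It was 5.91, 6.04 and 6.23 in LFD, 6.17, 6.37 and 6.10 in HFD, and 6.34 and 7.36 in ob/ob mice. LFD and HFD overlapped, and the higher mean of the ob/ob group came largely from replicate 2. Means were 6.06 ± 0.16 for LFD and 6.21 ± 0.14 for HFD (SD, n = 3 each), against 6.85 ± 0.72 (SD, n = 2) for ob/ob. In Gencode M21 it shares 19.0% of its exon bases with Gm43909 on the opposite strand, a gene not analysed here. The difference from LFD was 0.16 (SE 0.29) in HFD and 0.79 (SE 0.33) in ob/ob mice. The latter was 0.28 without ob/ob replicate 2 and 1.30 without ob/ob replicate 1. The former was 0.083 without LFD replicate 1, 0.24 without LFD replicate 3, 0.082 without HFD replicate 2 and −0.030 with quantile normalization.

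The PAR bZIP genes are the D-box output of the loop. Dbp, on chr7:45705088-45710203, was 7.82, 8.58 and 8.32 in LFD, 6.50, 5.84 and 5.77 in HFD, and 7.64 and 7.05 in ob/ob mice. The groups formed 3 separate levels, with ob/ob between LFD and HFD. Means were 8.24 ± 0.39 for LFD and 6.04 ± 0.40 for HFD (SD, n = 3 each), against 7.35 ± 0.42 (SD, n = 2) for ob/ob. The difference from LFD was −2.21 (SE 0.30) in HFD, 18th from the lowest of 15047 genes, and −0.90 (SE 0.34) in ob/ob mice, 1.86-fold. Dbp shares 539 of its 2993 exon bases, 18.0%, with Sphk2 on the opposite strand in Gencode M21, and whether the counting used strand is not given in the sources used here. Sphk2, a sphingosine kinase, was 7.58, 7.44 and 7.52 in LFD, 7.49, 7.19 and 7.66 in HFD, and 7.61 and 7.14 in ob/ob mice, a difference from LFD of −0.066 in HFD and −0.13 in ob/ob.

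Tef, on chr15:81802421-81826863, was 10.11, 10.02 and 10.26 in LFD, 9.32, 8.84 and 8.94 in HFD, and 9.79 and 9.59 in ob/ob mice. As with Dbp, no mouse of one group entered the range of another. Means were 10.13 ± 0.12 for LFD and 9.03 ± 0.25 for HFD (SD, n = 3 each), against 9.69 ± 0.14 (SD, n = 2) for ob/ob, with differences from LFD of −1.10 (SE 0.18) in HFD and −0.44 (SE 0.20) in ob/ob mice.

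Hlf, on chr11:90336536-90390895, had the largest spread within LFD and within HFD of the 10 genes. It was 4.09, 4.61 and 3.63 in LFD, 2.63, 3.84 and 2.94 in HFD, and 3.88 and 2.92 in ob/ob mice. All 3 groups overlapped. Means were 4.11 ± 0.49 for LFD and 3.14 ± 0.63 for HFD (SD, n = 3 each), against 3.40 ± 0.68 (SD, n = 2) for ob/ob. Against LFD the difference was −0.97 (SE 0.43) in HFD and −0.71 (SE 0.48) in ob/ob mice, and the latter was −0.23 without ob/ob replicate 2, −1.19 without ob/ob replicate 1 and −0.46 without LFD replicate 2.

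Both comparisons with LFD share the same 3 LFD mice, so their values are set side by side and not counted as separate evidence. In HFD the mean was lower for 9 of the 10 genes, beside 47.6% of all genes, with a median difference of −1.10 beside 0.03. In ob/ob mice the mean was lower for 9 of 10, beside 46.9% of all genes, with a median of −0.70 beside 0.04. Without overlap, 7 genes were lower in HFD, beside the 12.3% given above, and 7 in ob/ob mice, beside 21.8% of all genes. The 7 were Per2, Per3, Cry1, Cry2, Ciart, Dbp and Tef in ob/ob mice, with Bhlhe41 higher without overlap beside 24.1% of all genes, and in HFD Per1 was lower without overlap in place of Cry1. No gene of the table passed an adjusted p of 0.05 in limma in either comparison, so none of the 10 genes did, and the share of genes called was 0%. At an unadjusted p under 0.05 limma gave 2985 genes in HFD, 19.8%, and 2831 in ob/ob mice, 18.8%.

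HFD replicate 1 decided that count. Without it limma called 2812 genes between HFD and LFD at an adjusted p under 0.05, 18.7%, and 7 of the 10 genes were among them, namely Per1, Per2, Per3, Cry1, Cry2, Dbp and Tef. The difference of Dbp was then −2.44. In ob/ob mice Per2 alone of the 10 was called without HFD replicate 1, beside 0.591% of all genes, and likewise when only ob/ob and LFD mice were fitted, beside 0.253%. These counts rest on the values by which the genes were chosen and are given as a description.

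**Figure D2:**
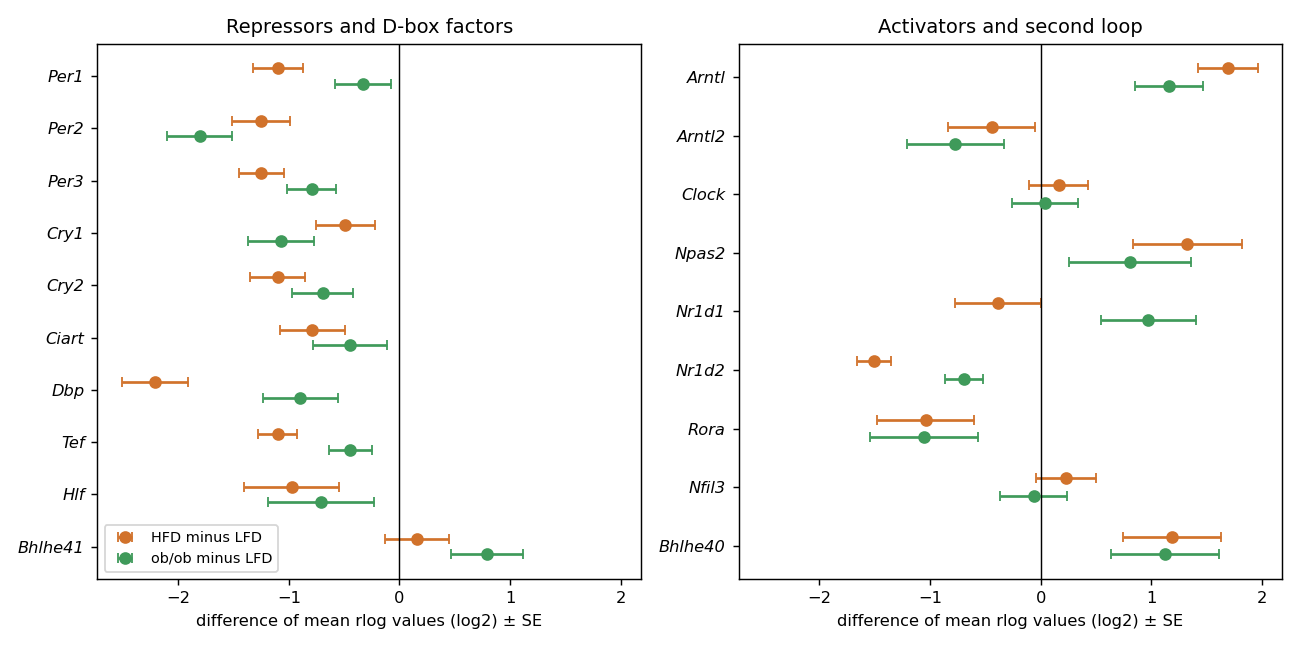
Difference of mean rlog values from LFD (log2, points) with its SE from limma (bars) in HFD (orange) and ob/ob mice (green), for the 10 genes on the left and 9 activators and second-loop genes on the right. Dbp lies farthest below 0 on the left in HFD at −2.21 and Per2 in ob/ob at −1.80, and Arntl lies farthest above 0 on the right at 1.69 in HFD.

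Mouse by mouse, each obese animal showed the pattern in most genes. HFD replicate 1, HFD replicate 2 and both ob/ob mice had 8 of the 10 genes below all 3 LFD mice, and HFD replicate 3 had 9. The share of all genes below all LFD mice was 27.8%, 32.9% and 36.2% in the HFD mice and 30.0% and 34.8% in the ob/ob mice. Bhlhe41 was the gene missing in every mouse, with Cry1 in HFD replicate 1, Hlf in HFD replicate 2 and ob/ob replicate 1, and Per1 in ob/ob replicate 2. The median difference from the LFD mean over the 10 genes was −0.82, −1.16 and −1.20 in the HFD mice and −0.38 and −0.95 in the ob/ob mice. The smallest shift was that of ob/ob replicate 1.

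**Figure D3:**
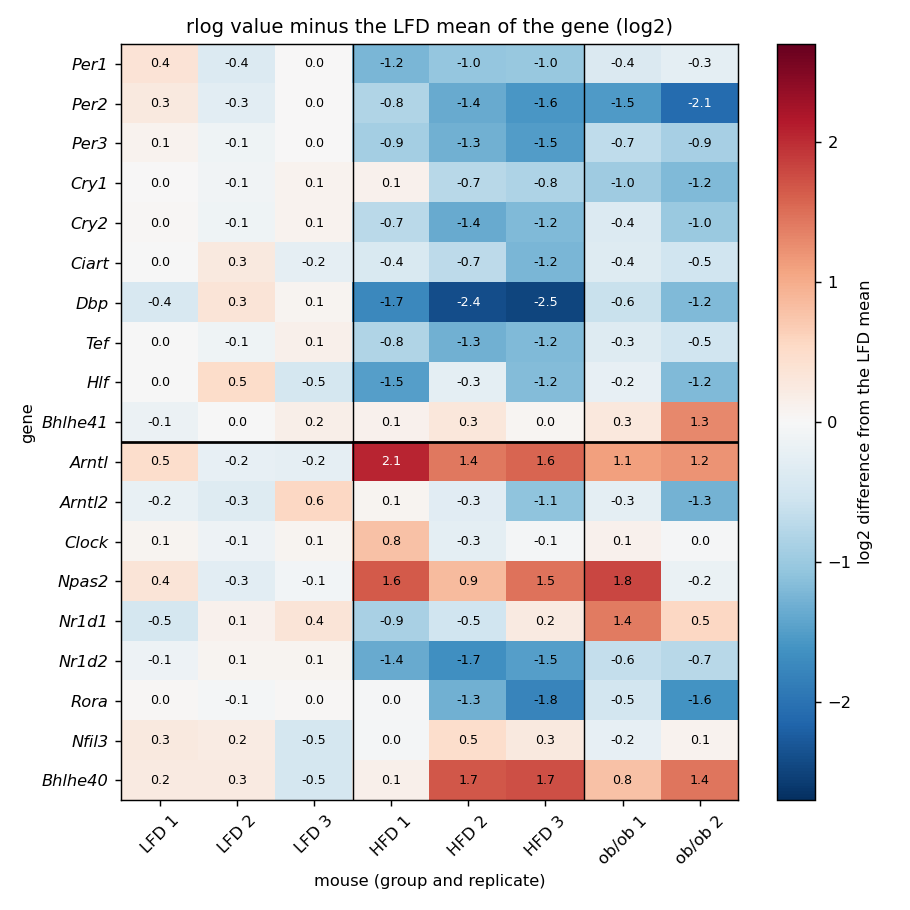
rlog value minus the LFD mean of each gene (log2, in colors and printed), for the 10 genes above the horizontal line and 9 activators and second-loop genes below it, in the 8 mice. HFD and ob/ob columns are mostly blue in the upper block except for Bhlhe41, and Arntl and Bhlhe40 are red in most of them in the lower block.

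The ob/ob mice were also set against HFD mice, from which they differ in both genotype and diet. These are the same obese mice whose distance from LFD was known when the genes were chosen, and genes chosen for low values in HFD tend to be higher in any other group, so these values too are a description. The mean was higher in ob/ob mice for 8 of the 10 genes and lower for 2, beside 48.3% of all genes lower, with a median of 0.43 beside 0.01 over all genes. Per1, Per3, Dbp and Tef were higher without overlap, 4 of 10 beside 7.92% of all genes, and Cry1 was lower without overlap, beside 5.42%. Dbp was higher by 1.31 (SE 0.34), Per1 by 0.77 (SE 0.25) and Tef by 0.65 (SE 0.20). The difference of the other 7 genes ran from −0.58 (SE 0.30) for Cry1 and −0.55 (SE 0.29) for Per2 to 0.63 (SE 0.33) for Bhlhe41. Some of these rested on single mice. Bhlhe41 was at 0.12 without ob/ob replicate 2 and 1.14 without ob/ob replicate 1, and Cry2, at 0.41, was at 0.72 and 0.09. Cry1 was at −0.28 without HFD replicate 1, and Per2 at −0.34 without that mouse and −0.29 without ob/ob replicate 2. Ciart, at 0.34, was at 0.53 without HFD replicate 1 and 0.11 without HFD replicate 3. Hlf, at 0.27, ran from −0.21 to 0.74 when 1 mouse was left out. limma gave 0 genes of the table, 0%, at an adjusted p under 0.05 and 588, 3.91%, at an unadjusted one, so the obese groups were not shown to differ in any of the 10 genes. Markers of other cell types differed in the same comparison, though none passed the adjusted p. Of 10 islet genes 9 had a higher mean in ob/ob mice, with a median difference of 1.73, and 7 were higher without overlap, beside the 7.92% of all genes. Of 10 ductal genes 9 had a lower mean, with a median of −0.88, and none was apart. Of 10 myeloid genes 3 were higher and 1 was lower without overlap, beside 7.92% and 5.42% of all genes, and of 10 fibroblast genes 9 had a higher mean, with a median of 0.39 and none apart. The mean was lower for 26 of 29 acinar, all 8 endothelial and 6 of 8 adipocyte genes, by small medians of −0.18, −0.15 and −0.13. The part of these cells in the clock genes was not tested.

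Ratios within a mouse do not depend on the scaling of libraries and are given as a description. Per2 minus Per3 was 0.52, 0.19 and 0.35 in LFD, 0.45, 0.30 and 0.29 in HFD, and −0.50 and −0.82 in ob/ob mice. The balance of these Period transcripts was thus alike in LFD and HFD, at 0.35 in both means, and lower in both ob/ob mice. Cry1 minus Cry2 was 0.03, 0.06 and 0.04 in LFD, 0.88, 0.66 and 0.41 in HFD, and −0.54 and −0.13 in ob/ob mice. HFD mice stood above and ob/ob mice below the LFD mice, which averaged 0.04 ± 0.02 (SD, n = 3).

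**Figure D4:**
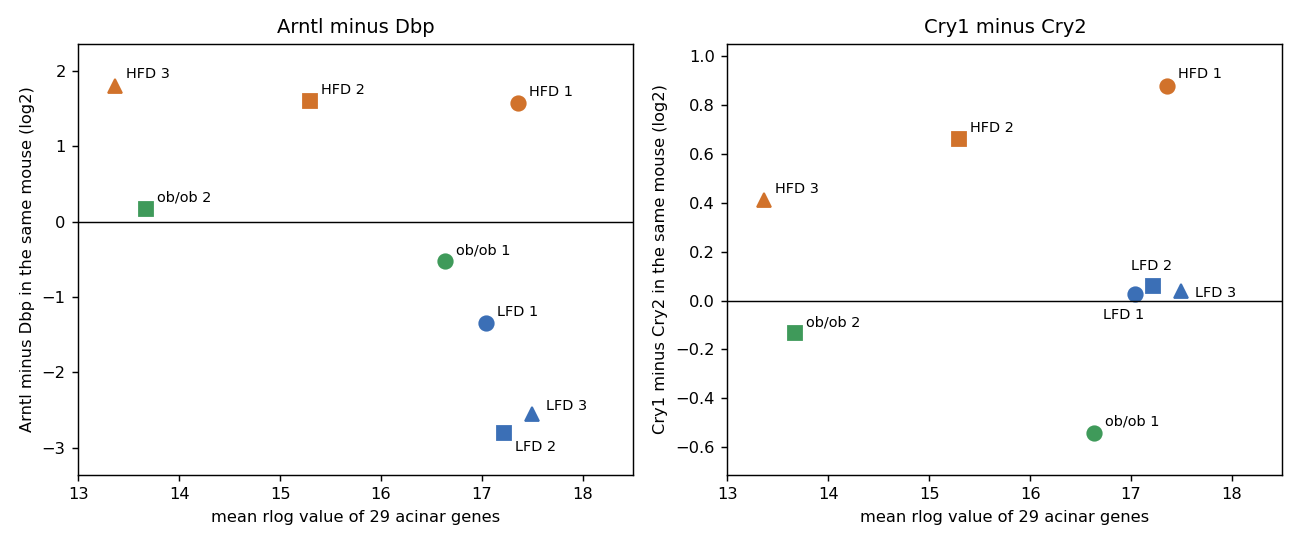
Arntl minus Dbp (left) and Cry1 minus Cry2 (right) within each mouse, log2 scale, against the mean rlog value of 29 acinar genes in that mouse, with colors for groups and marker shapes for replicates. HFD replicate 1, at an acinar level of 17.36 like the LFD mice, lies with the other HFD mice in Arntl minus Dbp at 1.58 and is the highest in Cry1 minus Cry2 at 0.88.

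Over the 8 mice most of the 10 genes varied in the same direction. Of the 45 pairs of genes 37 had a positive Pearson correlation, with a median of 0.64, and all 36 pairs without Bhlhe41 were positive, from 0.22 to 0.96. All pairs share the same 8 mice and the same contrast of groups. On the deviations of mice from their group means, 24 of the 36 pairs were positive, with a median of 0.44, and of all 45 pairs 25 were, with a median of 0.19. Per3 was closest to the mean of the other 9 genes, with r of 0.993, followed by Cry2, Tef and Dbp with 0.946, 0.942 and 0.922. Cry1 and Hlf were the loosest of the lower genes, with 0.555 and 0.586. This order is that of the 8 mice together, with the contrast of groups. On the deviations from group means, Cry1 ran from −0.40 with Hlf to 0.94 with Per3. Per1 ran from −0.83 with Dbp to 0.19 with Per2.

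Genes of the activating side and of the second loop, in which REV-ERB and ROR factors set the level of Arntl, went both ways. Of 11 such genes 10 were in the table. Their means were lower for 5 and higher for 5 in HFD, beside 47.6% of all genes lower. In ob/ob mice they were lower for 5 and higher for 5, beside 46.9% lower, and no call passed the adjusted p. Without overlap, 1 was lower and 2 were higher in HFD, beside 12.3% and 12.9% of all genes, and 3 were lower and 3 higher in ob/ob mice, beside 21.8% and 24.1%. Arntl, which encodes BMAL1, was 6.47, 5.78 and 5.77 in LFD, 8.07, 7.44 and 7.57 in HFD, and 7.12 and 7.21 in ob/ob mice. Every obese mouse exceeded every LFD mouse, and the mean was higher by 1.69 (SE 0.27) in HFD and 1.16 (SE 0.30) in ob/ob. Arntl minus Dbp, within a mouse, was −1.35, −2.81 and −2.55 in LFD, 1.58, 1.60 and 1.80 in HFD, and −0.53 and 0.17 in ob/ob mice, so that the 3 groups were apart in this ratio.

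Clock, the partner of BMAL1, differed by 0.16 in HFD and 0.04 in ob/ob mice. In HFD it was 10.62, 9.56 and 9.77, and replicate 1 alone was above the LFD mean of 9.82. Npas2, which can stand in for CLOCK, was 3.45, 2.81 and 3.03 in LFD, 4.75, 3.95 and 4.57 in HFD, and 4.89 and 2.92 in ob/ob mice. Its difference from LFD was 1.33 (SE 0.50) in HFD and 0.81 (SE 0.55) in ob/ob, where replicate 1 alone was high and replicate 2 lay below the LFD mean of 3.10. Arntl2, a relative of Arntl, differed by −0.44 and −0.77. It was 7.79, 7.66 and 8.55 in LFD, 8.07, 7.69 and 6.92 in HFD, and 7.74 and 6.72 in ob/ob mice. The difference in HFD rested largely on LFD replicate 3 and HFD replicate 3, and that in ob/ob on replicate 2. Nr1d2, which encodes the repressor REV-ERB beta, was 10.21, 10.40 and 10.40 in LFD, 8.98, 8.67 and 8.85 in HFD, and 9.70 and 9.59 in ob/ob mice. These are 3 levels in the order of Dbp and Tef, with a difference of −1.51 (SE 0.15) in HFD and −0.69 (SE 0.17) in ob/ob. Its limma adjusted p in HFD, 0.0864, was the smallest of all genes. Nr1d1, which encodes REV-ERB alpha, went another way, with 5.28, 5.86 and 6.10 in LFD, 4.88, 5.21 and 6.00 in HFD, and 7.14 and 6.30 in ob/ob mice. LFD and HFD overlapped in it, and both ob/ob mice were the highest.

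Rora, which encodes an activator of Arntl, differed by −1.04 (SE 0.44) in HFD and −1.06 (SE 0.49) in ob/ob mice. It was 9.69, 8.42 and 7.95 in HFD and 9.22 and 8.11 in ob/ob mice, against an LFD mean of 9.72. HFD replicate 1 was thus at the level of the LFD mice, and the difference in ob/ob came largely from replicate 2. Nfil3, whose product opposes the PAR bZIP factors at D-boxes, differed by 0.23 and −0.06. It was 6.92, 6.89 and 6.18 in LFD against an HFD mean of 6.89, so the difference in HFD rested on LFD replicate 3. Bhlhe40, the relative of Bhlhe41 also known as DEC1, was 8.16, 8.18 and 7.45 in LFD, 8.06, 9.61 and 9.68 in HFD, and 8.73 and 9.38 in ob/ob mice. HFD replicate 1 was again with the LFD mice in it, while the other 4 obese mice were above them. With the acinar mean as a covariate, Arntl differed by 1.80 in HFD and 1.28 in ob/ob, Nr1d2 by −1.43 and −0.61, Npas2 by 1.82 and 1.35, and Nr1d1 by −0.50 and 0.84. Others became smaller, Rora with −0.25 and −0.19 and Bhlhe40 with 0.51 and 0.38. Arntl2 turned to 0.17 in HFD and was at −0.10 in ob/ob. Clock was at 0.46 and 0.37 and Nfil3 at 0.030 and −0.28.

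Kinases, ubiquitin ligases and other partners of the clock proteins had no common direction. Of 16 measured genes the mean was lower for 9 in HFD and 7 in ob/ob mice, with medians of −0.02 and 0.07, and none passed the adjusted p. Over all genes the mean was lower for 47.6% and 46.9%. Usp2, a deubiquitinase with a strong daily rhythm, was the exception. It was 7.62, 7.44 and 8.11 in LFD, 6.23, 5.14 and 5.74 in HFD, and 5.83 and 5.64 in ob/ob mice. All obese mice were below all LFD mice, with a difference of −2.02 (SE 0.32) in HFD and −1.99 (SE 0.36) in ob/ob. Csnk1e, a casein kinase that phosphorylates PER proteins, differed by 0.70 and 0.62. The other genes named from both ends of the list were smaller, from −0.43 for Fbxl21 and −0.42 for Csnk2b to 0.18 for Fbxw11 and 0.24 for Nono in HFD, and from −0.39 for Ppp1cb and −0.17 for Fbxw7 to 0.17 for Csnk2a1 and 0.55 for Timeless in ob/ob mice. With the acinar covariate Usp2 differed by −1.81 and −1.75, but Csnk1e by 0.19 and 0.059, and Timeless and Ppp1cb in ob/ob mice by 0.066 and 0.017.

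Of 18 genes known as rhythmic outputs 17 were in the table, and the mean was lower for 5 in HFD and 7 in ob/ob mice, with medians of 0.18 and 0.14. The share of all genes with a lower mean was 47.6% and 46.9%. Wee1, a cell cycle kinase under E-box control, differed by −0.79 (SE 0.22) in HFD. Cdkn1a, the cell cycle inhibitor p21, was 5.34, 5.33 and 5.32 in LFD, 6.53, 7.38 and 6.91 in HFD, and 6.27 and 5.96 in ob/ob mice. The LFD mice were nearly equal and all obese mice were higher, by 1.61 (SE 0.27) in HFD and 0.79 in ob/ob. Herpud1, a stress gene of the endoplasmic reticulum, differed by −1.45 (SE 0.48) and −1.48, Cys1 by −0.92 and −1.09, and Rgs16, a regulator of G proteins, by 0.95 and 1.10. Leo1 differed by 0.89 in HFD and Por by 0.73 in ob/ob mice. None passed the adjusted p. With the acinar covariate Cdkn1a differed by 1.56 and 0.73, but Herpud1 by −0.63 and −0.58, Cys1 by −0.60 and −0.74, Rgs16 by 0.41 and 0.51, Wee1 in HFD by −0.63, Leo1 in HFD by 0.59 and Por in ob/ob by −0.062.

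Genes that respond to glucocorticoids or fasting, a list of 13 that includes Per1, were mostly lower, 10 in HFD and 9 in ob/ob mice, with medians of −0.81 and −0.65, though none passed the adjusted p. Of all genes, 47.6% and 46.9% had a lower mean. The metallothioneins Mt1 and Mt2, which bind metal ions, differed by −2.22 (SE 0.42) and −1.72 in HFD and by −2.11 (SE 0.47) and −1.79 in ob/ob mice. Klf15, a fasting factor, differed by −2.11 (SE 0.86) and −2.08 (SE 0.96). It was 9.59, 7.82 and 6.27 in HFD and 9.29 and 6.58 in ob/ob mice, against an LFD mean of 10.01. Its differences came largely from HFD replicates 2 and 3 and ob/ob replicate 2. At the other end, Errfi1 differed by 0.91 and 0.74, Ddit4 by 0.76 and 0.62, Dusp1 by 0.27 in HFD and Fkbp5 by 0.85 in ob/ob mice. With the acinar covariate Klf15 differed by −0.46 and −0.27, Mt1 by −1.50 and −1.32, Mt2 by −1.03 and −1.04, Errfi1 by 0.30 and 0.074, Ddit4 by 0.67 and 0.52, Dusp1 in HFD by −0.11 and Fkbp5 in ob/ob by 0.47. Corticosterone and feeding before collection were not measured in these data, and their part in the clock genes was not tested.

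Markers of cell types were looked up next, since the pancreas holds many, and each list was found in full with no gene at 0. The 29 acinar genes ranged from 13.36 to 17.49 in mean rlog value, and Cela2a, the most abundant, was 20.76, 21.13 and 21.48 in LFD, 21.16, 18.90 and 17.03 in HFD, and 20.23 and 17.26 in ob/ob mice. The acinar genes made up 32.2% to 34.7% of the summed linear values in LFD, 33.8%, 25.0% and 12.1% in HFD, and 33.9% and 13.9% in ob/ob mice. Their median difference from LFD was −1.94 in HFD, with 4 of 29 lower without overlap beside 12.3% of all genes. In ob/ob mice it was −2.10, with 26 lower beside 21.8%. The 10 fibroblast genes, led by Col3a1, had a mean of 9.97, 9.94 and 9.55 in LFD, 10.41, 11.07 and 11.29 in HFD, and 10.86 and 11.72 in ob/ob mice. The 10 myeloid genes, led by Lyz2, had 8.51, 8.64 and 8.04 in LFD, 9.12, 10.00 and 10.08 in HFD, and 9.67 and 10.12 in ob/ob mice. Both list means were thus higher in every obese mouse than in any LFD mouse, though not every gene was. In HFD 6 of the 10 fibroblast and 6 of the 10 myeloid genes were higher without overlap, beside 12.9% of all genes, and in ob/ob mice 9 and 10, beside 24.1%.

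The 10 ductal genes, led by Spp1, ranged from 9.05 to 10.37 with extremes in ob/ob replicate 2 and HFD replicate 2. Their median difference from LFD was 0.89 in HFD, with 3 higher without overlap beside 12.9% of all genes, and −0.08 in ob/ob mice, with 2 lower and 1 higher beside 21.8% and 24.1%. The 10 islet genes, led by Ins2, ranged from 8.34 in HFD replicate 3 to 10.48 in ob/ob replicate 1. Against LFD they had a median difference of 1.25 in ob/ob mice, with 7 higher without overlap beside 24.1% of all genes, and of −0.45 in HFD, with none apart beside 12.3% lower and 12.9% higher. The 8 endothelial genes, led by Pecam1, ranged from 7.24 to 8.08, and the 8 adipocyte genes, led by Fabp4, from 6.23 to 7.57. HFD replicate 1, at an acinar level of 17.36, had 8 of the 10 clock genes below all LFD mice, beside 27.8% of all genes. With the acinar mean as a covariate, the difference in HFD was −1.83 for Dbp, −1.20 for Per1, −1.02 for Per3, −0.93 for Tef, −0.90 for Per2, −0.88 for Hlf, −0.81 for Cry2, −0.50 for Ciart, −0.15 for Cry1 and −0.043 for Bhlhe41. In ob/ob mice it was −1.42 for Per2, −0.70 for Cry1, −0.61 for Hlf, −0.54 for Per3, −0.49 for Dbp, −0.44 for Per1, −0.37 for Cry2, −0.26 for Tef, −0.13 for Ciart and 0.57 for Bhlhe41. Of the genes apart from LFD in both groups, Ciart in ob/ob mice became smallest, from −0.45. The SEs ran from 0.16 for Tef to 0.51 for Hlf in HFD, and from 0.18 to 0.56 for the same genes in ob/ob mice. None of the 10 genes passed the adjusted p in this fit. Its slope rests largely on the obese mice, so it does not separate acinar level from group. The part of acinar, fibroblast, myeloid and transplanted tumor cells in these values was not tested.

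Outside the set, the genes whose values over the 8 mice were most like the mean of the 10 genes were Mfsd11 (Pearson r of 0.994), Eif2b1 (0.981), Trim24 (0.979), Rab3a (0.978), Cog7 (0.977), Slc39a7 (0.975), Coq10a (0.974) and Retreg2 (0.974). Mfsd11, a member of a transporter family, differed from LFD by −0.97 in HFD and −0.66 in ob/ob mice. Rab3a, a small GTPase of vesicle release, differed by −1.47 and −0.94. The most opposite genes were Casp6 (−0.983), Pinx1 (−0.973), Wnt2 (−0.972), Mmp25 (−0.970) and Ccdc120 (−0.969). Wnt2, a secreted Wnt ligand, was higher by 1.83 in HFD and 1.13 in ob/ob mice, and Casp6, an apoptotic protease, by 0.88 and 0.48. These genes are the extremes of the table outside the set, ranked over 8 mice that carry the same contrast of groups.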

How the data were processed

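RNA was extracted from pancreas of 8 male mice and sequenced paired-end. Per the submitters' notes and methods, the authors checked reads with FastQC, quantified Gencode M18 transcripts (GRCm38.p6) with Salmon 0.11.3, summarized them per gene with tximport, and applied the rlog transformation of DESeq2 1.22.2. The authors deposited these log2 values for 15047 genes, from 0.466 to 24.3. The filter behind these genes is not given in the sources used here. rlog shrinks differences of genes with few reads. Counts were not used here, so depth is unknown and no counting error is given. Salmon shares reads between similar transcripts, so paralogs and overlapping genes are less certain.

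Mice were grouped by their labels. Differences were fitted on all genes with limma 3.58.1 in R 4.3.3, with 1 mean per group, 5 residual degrees of freedom and a trend in the empirical Bayes step, and p-values were adjusted by the Benjamini-Hochberg method over 15047 genes. The median residual SD was 0.342. The step was tested on simulated data for HFD against LFD, with 50 genes changed at each size. At an adjusted p under 0.05 limma called 4% of changes of 2 residual SD, 38% of those of 4 and 98% of those of 8. Members and lists were chosen with earlier results of these data known. Genes named beside the 10 members are all genes of the activator list, the 3 largest differences each way in 3 other lists, the 8 most alike and 5 most opposite genes over 8 mice, and the most abundant marker of each cell type. The values of 2 genes of these lists are not reported here, though the lists' counts include them. Sphk2 was added for its overlap with Dbp. Gene positions and exon overlaps are those of Gencode M21 on GRCm38 and promoters those of RefSeq. Python 3.11.15 and matplotlib 3.10.9 were used for summaries and plots.

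The alternatives were only the groups compared, no trend, a minimum mean of 5 on the rlog scale, median centring, quantile normalization, the replicate number as a block, the acinar mean as a covariate, and leaving out each mouse. Mouse medians ranged from 7.09 to 7.25, and correlations between pairs of mice from 0.884 to 0.982.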

Additional observations from a re-analysis of the deposited data

Results flagged for a closer look

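Fbxl21, a ubiquitin ligase gene of the Cryptochromes, was the only gene of the clock lists in which every HFD mouse was below and every ob/ob mouse above the LFD mean. It was 4.42, 4.42 and 4.00 in LFD, 4.12, 3.82 and 3.59 in HFD, and 4.50 and 4.36 in ob/ob mice. The difference of ob/ob from HFD was 0.59, with a limma adjusted p of 1.00, so the groups were not shown to differ. No test for outlying samples was run.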

How the results depend on the processing

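Over the reported fit and 15 alternatives, the mean of 9 of the 10 genes was lower in HFD than in LFD under 13, of all 10 with quantile normalization or the acinar covariate, and of 7 with a minimum mean of 5 on the rlog scale, which removes genes. In ob/ob mice it was 9 except 7 under that minimum. Bhlhe41 in HFD turned to −0.030 with quantile normalization and −0.043 with the acinar covariate. Hlf in ob/ob against HFD was −0.21 without ob/ob replicate 1 and 0.74 without ob/ob replicate 2. The cause was not tested. With only the groups compared, limma called 1 gene at an adjusted p under 0.05 in HFD and 38 in ob/ob mice, and ob/ob against HFD gave 353 genes at an unadjusted p under 0.05, and 389 under that minimum. The acinar covariate left 1630, 1493 and 1178 such genes in HFD, in ob/ob and in ob/ob against HFD, with 1 gene at an adjusted p under 0.05 in ob/ob against LFD and 1 against HFD. Leaving out 1 mouse gave 0 to 2812 calls in HFD, 0 to 89 in ob/ob (61 without ob/ob replicate 1, 89 without HFD replicate 1) and 0 to 1 in ob/ob against HFD. At an unadjusted p under 0.05 it gave 1480 to 5445, 752 to 4075 and 369 to 1117 genes, the lowest being without HFD replicate 2, ob/ob replicate 2 and ob/ob replicate 2. It gave 1 to 2 of the 10 genes lower without overlap in ob/ob against HFD. Without 1 ob/ob mouse, the remaining one is assumed to vary like the other groups. Replicate numbers were not taken to pair the mice, since deviations of same-numbered LFD and HFD mice correlated by −0.060, 0.11 and −0.28, those of LFD and ob/ob mice by −0.097 and 0.13, and those of HFD and ob/ob mice, with only 2 pairs, by 0.59 and 0.30. A fit with that number as a replicate block passed 0 genes at the adjusted p in each comparison, and 3255, 3243 and 467 at an unadjusted p under 0.05. With 2 or 3 mice a group and unknown depth, differences near the spread between mice were not detectable. In the simulated data most changes of 4 residual SD were missed as well.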
